A study of Homo sapiens with 6 samples.

Results

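ARPP19 and ENSA are small phosphoproteins that, once phosphorylated by the kinase MASTL (Greatwall), inhibit protein phosphatase 2A (PP2A) in its B55 form. The expression of 9 genes of this module was followed here by RNA-seq: the inhibitors ARPP19 and ENSA, the kinase MASTL, the PP2A catalytic subunits PPP2CA and PPP2CB, the scaffold subunits PPP2R1A and PPP2R1B, and the B55 regulatory subunits PPP2R2A and PPP2R2D. They were found by gene name in the deposited table, where they took 9 of 27918 rows, and all 9 rows passed the filter of a mean of at least 0.1 FPKM that 16028 rows passed. The set was chosen by the FPKM values of this same comparison, in which ARPP19 was among the most increased genes, so that the differences of its 9 members between the groups are given as a description, and the calls counted for them support nothing.

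The cells were HCT-116, an established human colorectal carcinoma line, transfected with 10 nM of an antisense LNA GapmeR directed against the long noncoding RNA CASC9 (GapC9) or of a negative control GapmeR (GapNC). A GapmeR is a short oligonucleotide whose DNA center recruits RNase H to the paired RNA. Each group had 3 libraries of poly(A) RNA. The time from transfection to harvest is given as 24 h in one place and as 48 h in another. The labels do not say whether the libraries came from separate cultures, and a general statement in the methods that experiments were repeated does not name these libraries, so p-values measure only the spread between these samples, which may be technical.

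The values are FPKM, fragment counts scaled by transcript length and by the number of mapped fragments, which can be compared between genes within a library. The step between low values gives a depth of 22.8 to 24.4 M fragments per library if 1 step is 1 fragment. The targeted RNA, CASC9, had FPKM values of 0, 0.0108 and 0 in the libraries labelled GapNC. Those labelled GapC9 gave 0.0528, 0.107 and 0 FPKM. It was therefore not lower in the libraries labelled GapC9, but all values lay so close to 0 that they cannot show whether CASC9 was reduced. The study reported reduced CASC9 by RT-qPCR in HCT-116 cells transfected with GapC9, without saying whether these were the same samples. Each direction given here rests on the labels. Of 8 markers of colorectal epithelium, 6 had at least 1 FPKM in every library, with EPCAM, KRT8, KRT18 and KRT19 abundant. VIL1 stayed under 0.1 FPKM and CEACAM5 had no row. All 4 endothelial markers and 4 of 5 leukocyte markers (CD68 was the exception) stayed under 0.1 FPKM in every library. Of the 4 fibroblast markers with a row, COL1A2 and PDGFRB stayed under 0.1 FPKM, while COL1A1 and COL3A1 had at least 1 FPKM in every library. GapNC replicate 1 stood apart, in that its log2 deviations from the mean of all libraries increased with the GC content of the transcript. The Spearman correlation was 0.618 across 10117 genes, which are not independent replicates. It was 0.0132 and −0.101 in GapNC replicates 2 and 3. In GapC9 replicates 1, 2 and 3 it was 0.0216, −0.339 and −0.384.

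At the G2/M transition CDK1 drives cells into mitosis, and PP2A-B55 removes the phosphates that CDK1 adds. MASTL, itself switched on by CDK1, phosphorylates ARPP19 and ENSA at a conserved serine, and the phosphorylated inhibitors occupy PP2A-B55 until mitotic exit. PP2A works as a trimer of a catalytic subunit, a scaffold and 1 regulatory subunit, and the regulatory subunit sets the substrates.

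The site that makes ARPP19 and ENSA substrates of MASTL is shown first, because it is what joins both inhibitors to the kinase. The coding stretches below cover 28 codons that encode the same amino acids in both genes, and the capitals mark the codon of the serine that MASTL phosphorylates, codon 62 in ARPP19 and codon 67 in ENSA.
ARPP19: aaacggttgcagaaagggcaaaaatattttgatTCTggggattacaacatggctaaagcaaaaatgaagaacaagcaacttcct
ENSA: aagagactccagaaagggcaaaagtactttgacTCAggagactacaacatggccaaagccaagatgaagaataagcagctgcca
Both are written 5′ to 3′ along the RNA from GENCODE v29 (GRCh38). The ARPP19 stretch lies in exons 3 and 4 of 4 of transcript ENST00000566423, on the minus strand of chromosome 15 between 52552039 and 52557117, with an intron inside these limits. The ENSA stretch lies in exons 2 and 3 of 3 of ENST00000271690, on the minus strand of chromosome 1 between 150625743 and 150627484, also with an intron inside. They differ at 18 of 84 bases, T36A in the serine codon among them (ARPP19 base, position from the 5′ end of the stretch, ENSA base). The whole ARPP19 stretch is present in 11 of 11 coding transcripts that the table lists for ARPP19, and the ENSA stretch in 4 of 12. Only the whole stretch was searched for, so whether the other ENSA transcripts hold the serine codon was not examined. Over the coding sequences of 112 and 117 codons, 71.7% of aligned bases were identical, with no identical run longer than 17 bases.

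ARPP19 (ENSG00000128989), the inhibitor encoded between 52547045 and 52569883 on the minus strand of chromosome 15, showed the largest difference of the 9 members. Its level was 4.49, 8.95 and 9.84 FPKM in GapNC replicates 1, 2 and 3. In the libraries labelled GapC9 it was 38.8, 40.6 and 42.1 FPKM. The 3 GapC9 values lay close together, 1.08-fold apart, whereas the GapNC values were 2.19-fold apart, with replicate 1 lowest. The groups did not overlap, and the lowest GapC9 library was 3.94 times the highest GapNC library. The means were 7.76 ± 2.87 and 40.5 ± 1.64 FPKM (SD, n = 3), a ratio of 5.21 and a difference of 2.44 on the log2(FPKM + 0.1) scale with a standard error of 0.30. By this difference ARPP19 ranked 72 from the top of all 16028 rows tested.

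The ARPP19 row held 12 annotated transcripts of 1 gene, from which no single isoform can be read, and no gene on the opposite strand overlaps ARPP19. Because FPKM is divided by transcript length, a change in isoform use and a change in RNA amount cannot be told apart in it. The longest ARPP19 transcript has 36.7% GC, at percentile 4.14 of the genes tested. GapNC replicate 1, the library that favored GC-rich genes, was also the lowest for ARPP19. GapC9 replicates 2 and 3 favored GC-poor genes (correlations of −0.339 and −0.384), and ARPP19 was high in both. After correction of each library for GC content the log2 difference was 2.32, and without GapNC replicate 1 it was 2.10. Over all 16 alternative settings it stayed between 2.10 and 2.65.

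**Figure D1:**
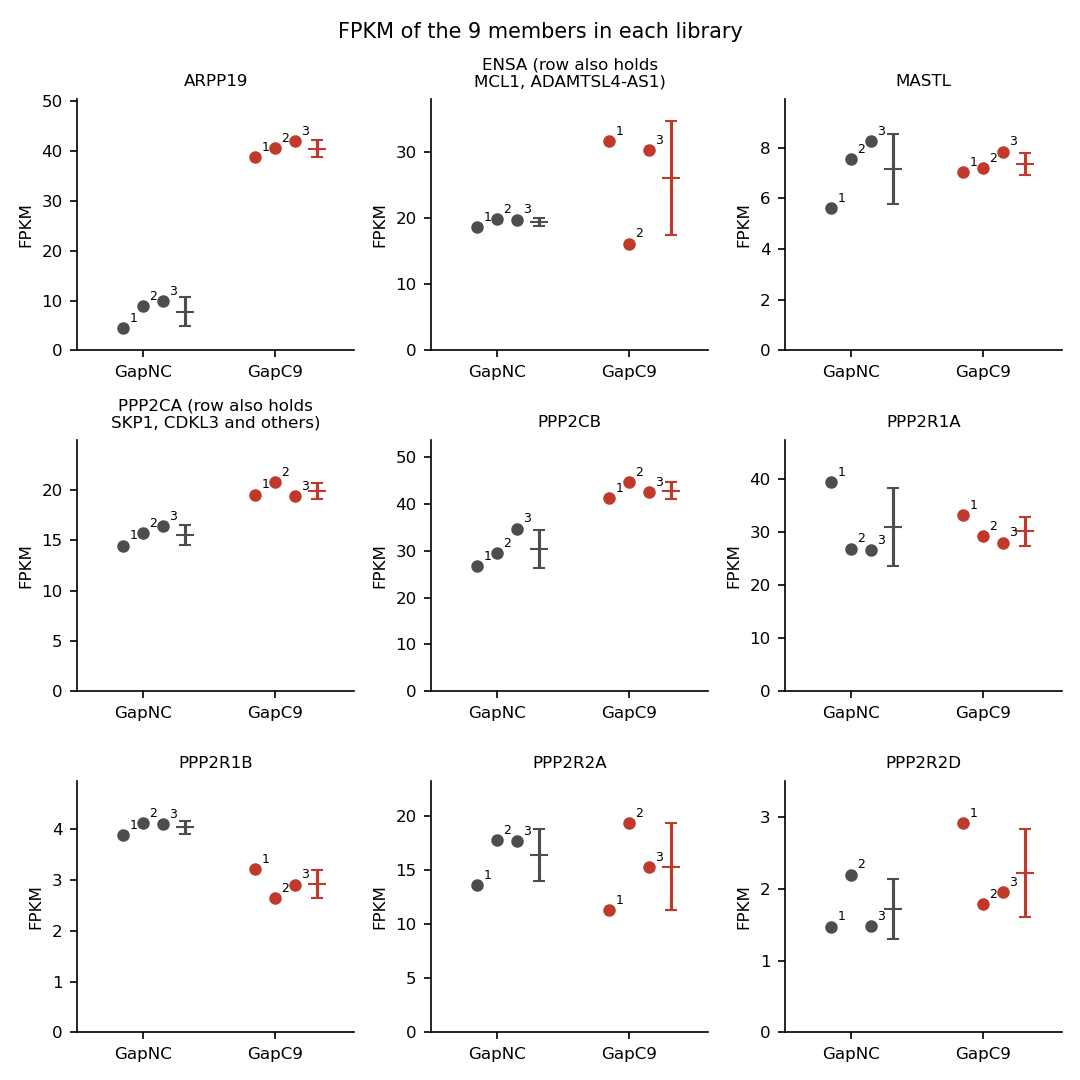
FPKM (vertical axis, from 0) of the 9 members in the 3 GapNC (grey) and 3 GapC9 (red) libraries, numbered by replicate, with the mean and SD beside the points. ARPP19 sits at 4.49 to 9.84 FPKM in GapNC and 38.8 to 42.1 in GapC9, and the ENSA and PPP2CA panels show rows that join several genes.

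ENSA (ENSG00000143420), the paralogue of ARPP19, could not be read by itself. Its row also held MCL1, an anti-apoptotic BCL2 family member whose gene is the neighbor of ENSA, and the antisense RNA ADAMTSL4-AS1, with 19 annotated transcripts in all. The joined row was listed at 18.6, 19.8 and 19.7 FPKM in the GapNC libraries. In those labelled GapC9 it was at 31.6, 16.1 and 30.3 FPKM. GapC9 replicate 2 lay below all GapNC libraries and the other GapC9 libraries above them, so the groups overlapped. The log2 difference was 0.36 with a standard error of 0.27. The ENSA pseudogene ENSAP2 had a row of its own, at 1.18, 1.75 and 1.37 FPKM in GapNC and at 1.33, 1.17 and 0 in GapC9, and its value is uncertain because it shares sequence with ENSA. Since the ENSA row holds other genes, the share of ARPP19 in the sum of both rows is a share among rows and not among the inhibitors. It was 19.4%, 31.2% and 33.3% in GapNC and 55.1%, 71.6% and 58.2% in GapC9.

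MASTL (ENSG00000120539), the kinase upstream of both inhibitors, was at 5.61, 7.56 and 8.27 FPKM in the GapNC libraries. In those labelled GapC9 it was at 7.03, 7.21 and 7.85 FPKM. All GapC9 values lay within the GapNC range. The means were 7.15 ± 1.38 and 7.36 ± 0.428 FPKM (SD, n = 3), with a log2 difference of 0.060 (standard error 0.17) that turned to −0.10 without GapNC replicate 1. MASTL is overlapped by YME1L1 on the opposite strand, and the use of strand is not stated. ARPP19 and MASTL were thus at similar levels in GapNC, where their ranges overlapped, while in GapC9 the ARPP19 values were all above those of MASTL.

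Of the catalytic subunits, which carry the phosphatase activity, PPP2CB had a row of its own. PPP2CB (ENSG00000104695) was at 26.7, 29.5 and 34.7 FPKM in GapNC and at 41.2, 44.6 and 42.5 FPKM in GapC9. The groups did not overlap, and the means of 30.3 ± 4.06 and 42.8 ± 1.75 FPKM (SD, n = 3) gave a ratio of 1.41 and a log2 difference of 0.50 (standard error 0.12). PPP2CA (ENSG00000113575), the other catalytic subunit, was joined in 1 row with SKP1, a core subunit of SCF ubiquitin ligases, with the kinase gene CDKL3 and with AC104109.3 and AC104109.4. That row was at 14.5, 15.7 and 16.4 FPKM in GapNC and at 19.5, 20.8 and 19.4 FPKM in GapC9. Its groups did not overlap either, with a log2 difference of 0.36 (standard error 0.095). How much of this row belongs to PPP2CA cannot be read from the table, and MIR3661 overlaps PPP2CA on the opposite strand. The coding sequences of PPP2CA and PPP2CB, both of 309 codons, share 83.2% of their bases. The longest identical run is 26 bases. The row of PPP2CA made up 32.1% to 35.2% of the sum with PPP2CB in GapNC and 31.3% to 32.2% in GapC9, ranges that overlapped.

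The scaffold subunits hold the catalytic and regulatory subunits together. PPP2R1A (ENSG00000105568), the main scaffold, was at 39.4, 26.8 and 26.5 FPKM in GapNC and at 33.1, 29.2 and 28.0 FPKM in GapC9. GapNC replicate 1 was above all other libraries and the groups overlapped. The log2 difference was −0.017 (standard error 0.18), and its sign changed in 7 of the 16 alternative settings, median scaling, quantile normalization and the GC correction among them. PPP2R1B (ENSG00000137713), the second scaffold, was at 3.89, 4.13 and 4.10 FPKM in GapNC and at 3.21, 2.65 and 2.91 FPKM in GapC9. All 3 GapC9 libraries lay below all GapNC libraries. The means were 4.04 ± 0.131 and 2.92 ± 0.284 FPKM (SD, n = 3), a ratio of 0.724 and a log2 difference of −0.46 (standard error 0.12), which stayed negative in all 16 settings. AC010320.2 overlaps PPP2R1A, and SIK2 overlaps PPP2R1B, on the opposite strand. PPP2R1A made up 91.0%, 86.7% and 86.6% of the summed FPKM of both scaffolds in GapNC and 91.2%, 91.7% and 90.6% in GapC9. GapNC replicate 1 thus fell in the range of the GapC9 libraries.

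The B55 subunits are the regulatory subunits that ARPP19 and ENSA act on. PPP2R2A (ENSG00000221914) was at 13.6, 17.8 and 17.7 FPKM in GapNC and at 11.3, 19.3 and 15.2 FPKM in GapC9, where replicate 1 was the lowest of all libraries and replicate 2 the highest. Its log2 difference of −0.12 (standard error 0.22) turned positive after median scaling and without GapC9 replicate 1. PPP2R2D (ENSG00000175470), the lowest member, was at 1.47, 2.20 and 1.48 FPKM in GapNC and at 2.92, 1.79 and 1.95 FPKM in GapC9. The groups overlapped, and the log2 difference was 0.35 (standard error 0.25). PPP2R2A supplied 89.0% to 92.3% of the summed FPKM of the pair in GapNC and 79.5% to 91.5% in GapC9, where replicate 1 was lowest.

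Across the members, the groups did not overlap for 3 rows that were higher (ARPP19, PPP2CB and the PPP2CA row) and 1 that was lower (PPP2R1B) in the libraries labelled GapC9. This is 4 of 9, where 34.2% of all rows tested did not overlap (12.6% higher and 21.6% lower). At an adjusted p under 0.05 in limma, 1 of the 9 members was called, ARPP19, where 6.99% of all rows were called (1.89% higher and 5.1% lower). By a ratio of means of at least 2 or at most 0.5 with an unadjusted p under 0.05, ARPP19 was again the single member called, where 6.42% of all rows were called (2.1% higher and 4.32% lower). Since the members were chosen with this comparison known, nothing is read from these counts. The number also moved with the processing. At the adjusted threshold ARPP19 was not called without GapNC replicate 2 or without any 1 of the GapC9 libraries. The PPP2CA row and PPP2CB were called besides ARPP19 after median scaling, and PPP2R1B besides it with the filter at 1 FPKM. All of these rows, 4 of the 9, were called after the GC correction. Over all rows, the calls were 945 of 16028 after median scaling and 1200 of 10229 with the filter at 1 FPKM. After the GC correction they were 2317 of 16028. The median log2 difference was 0.35 over the members and −0.076 over all rows tested. The 8 other members differed by 0.017 to 0.50 in absolute log2 difference, with ratios of means between 0.724 and 1.41.

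**Figure D2:**
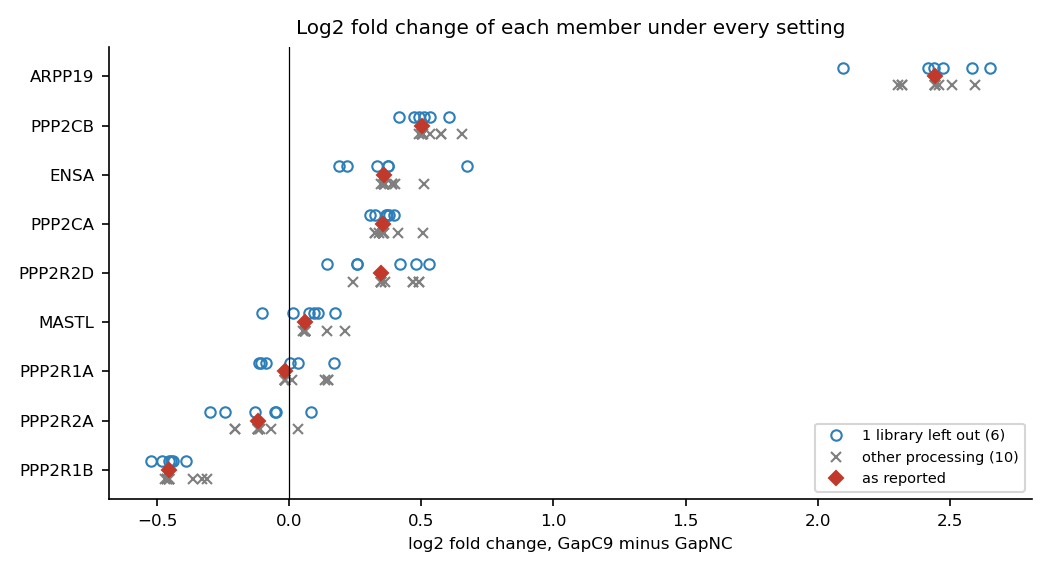
Log2 difference (horizontal axis, GapC9 minus GapNC) of each member as reported (red diamonds), with 1 library left out (blue circles, 6 per member) and under 10 other processing settings (grey crosses). ARPP19 stays between 2.10 and 2.65, PPP2R1B stays below 0, and MASTL, PPP2R1A and PPP2R2A lie on both sides of 0.

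In the order of levels within GapNC, PPP2R1A (mean 30.9 FPKM) and PPP2CB (30.3 FPKM) came first and overlapped. The ENSA row (19.4 FPKM), PPP2R2A (16.3 FPKM) and the PPP2CA row (15.5 FPKM) followed, PPP2R2A and the PPP2CA row overlapping. ARPP19 (7.76 FPKM) and MASTL (7.15 FPKM) overlapped, and PPP2R1B (4.04 FPKM) and PPP2R2D (1.72 FPKM) came last without overlap. In GapC9, PPP2CB (42.8 FPKM) and ARPP19 (40.5 FPKM) headed the order with overlapping ranges, and all ARPP19 values were above those of PPP2R1A (30.1 FPKM). ARPP19 moved from the sixth to the second place of the 9 rows, and PPP2R1B and PPP2R2D, at 2.92 and 2.22 FPKM, overlapped.

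Other genes of the pathway were taken from 4 lists with 49 genes, of which 47 had a row and all 47 rows were tested. At a limma adjusted p under 0.05, 4 passed, all with lower values in GapC9, which is 4 of 47 rows against 6.99% of all rows. An unadjusted p under 0.05 was reached by 15 of the 47 rows and by 4157 of all 16028. After the GC correction, 5 of the 47 rows passed as higher and 7 as lower, against 1089 higher and 1228 lower of all 16028. The median log2 difference over the 47 rows was −0.025, against −0.076 over all rows. List genes that neither passed nor lay at an end of their list (PPME1, SET, KIAA1524, FAM122A, PPP2R2C, CDK1, CCNB1 and PPP6C) are named for their role and were chosen after their values were seen.

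Among 11 regulators of PP2A assembly and activity, 0 passed as higher and 1 as lower at the adjusted threshold. The latter was LCMT1, the methyltransferase that methylates the PP2A catalytic subunit at its carboxyl end. LCMT1 was at 6.47, 6.52 and 5.77 FPKM in GapNC and at 2.90, 2.96 and 2.67 FPKM in GapC9. The groups lay far apart relative to their spread, with means of 6.25 ± 0.421 and 2.84 ± 0.150 FPKM (SD, n = 3), a log2 difference of −1.11 (standard error 0.11) and a limma adjusted p of 0.0159. LCMT1 was also the single list gene to pass the ratio of 0.5. LCMT1-AS2 overlaps it on the opposite strand. With 1 library left out it passed in 2 of the 6 fits (without GapNC replicate 1 and without GapNC replicate 3), with adjusted p between 0.0266 and 0.0718. PPME1, the methylesterase that reverses this mark, was at 13.8 ± 0.907 and 14.05 ± 0.988 FPKM (SD, n = 3; log2 difference 0.030, limma adjusted p = 0.890). The PP2A inhibitors SET (log2 difference 0.12) and KIAA1524, now named CIP2A (−0.59), did not pass, nor did BOD1, which had the largest positive difference of the list (0.55, limma adjusted p = 0.336). FAM122A, an inhibitor of PP2A-B55, was listed at 0 in replicate 2 of both groups. ARPP21 had no row.

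Of 12 other PP2A regulatory subunits, 0 passed in either direction, and the median log2 difference was 0.033. The range ran from −0.66 in STRN, a striatin (limma adjusted p = 0.391), to 0.17 in PPP2R5D, a B56 subunit (limma adjusted p = 0.718). PPP2R2C, a further B55 subunit, was at 2.22 ± 0.548 FPKM in GapNC and 1.35 ± 0.0960 FPKM in GapC9 (SD, n = 3), with a log2 difference of −0.65 that did not pass (limma adjusted p = 0.102). PPP2R2B, the remaining B55 gene, had no row.

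Of 12 genes of the CDK1 switch that drives mitotic entry, 0 passed as higher and 1 as lower at the adjusted threshold. CDC25A, a phosphatase that activates CDK1 and CDK2, was at 14.5, 14.99 and 15.6 FPKM in GapNC and at 8.78, 8.64 and 8.83 FPKM in GapC9. The log2 difference was −0.77 (standard error 0.088, limma adjusted p = 0.0166). CDC25A passed in 1 of the 6 fits that left out 1 library, that without GapNC replicate 1. Its limma adjusted p was 0.0239 to 0.0859 over the 6. SNRPFP4, RNU7-128P and NDUFB1P1 overlap CDC25A on the opposite strand. PKMYT1, which inhibits CDK1, had the largest negative difference of the list (−0.87, limma adjusted p = 0.0637), and CCNA2, or cyclin A2, the largest positive one (0.66, limma adjusted p = 0.150). CDK1 itself was at 22.5 ± 2.77 and 27.0 ± 1.19 FPKM (SD, n = 3; limma adjusted p = 0.220). CCNB1, its mitotic cyclin, was at 97.7 ± 4.98 and 80.6 ± 4.55 FPKM (SD, n = 3; limma adjusted p = 0.112).

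The related phosphatases PP1, PP4 and PP6 gave 12 catalytic and regulatory genes. At the adjusted threshold 0 of these passed as higher and 2 as lower, both of them regulatory subunits of PP6. PPP6R2 was at 14.04, 10.6 and 10.1 FPKM in GapNC and at 7.04, 5.29 and 5.20 FPKM in GapC9 (log2 difference −0.97, standard error 0.19, limma adjusted p = 0.0397). It passed in 0 of the 6 fits that left out 1 library, where its adjusted p was 0.0626 to 0.138. PPP6R3 was at 15.5, 17.4 and 16.8 FPKM in GapNC and at 12.2 FPKM in each of the 3 GapC9 libraries (log2 difference −0.44, standard error 0.091, limma adjusted p = 0.0468), and passed in 1 of these 6 fits, also without GapNC replicate 1 (adjusted p 0.0387 to 0.167). SBF1 overlaps PPP6R2, and NDUFA3P2 and AP003096.1 overlap PPP6R3, on the opposite strand. The catalytic subunit PPP6C (log2 difference 0.31) did not pass (limma adjusted p = 0.424). The largest positive difference of the list was that of the row joining PPP1CB, a PP1 catalytic subunit, with SPDYA (0.70, limma adjusted p = 0.428).

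**Figure D3:**
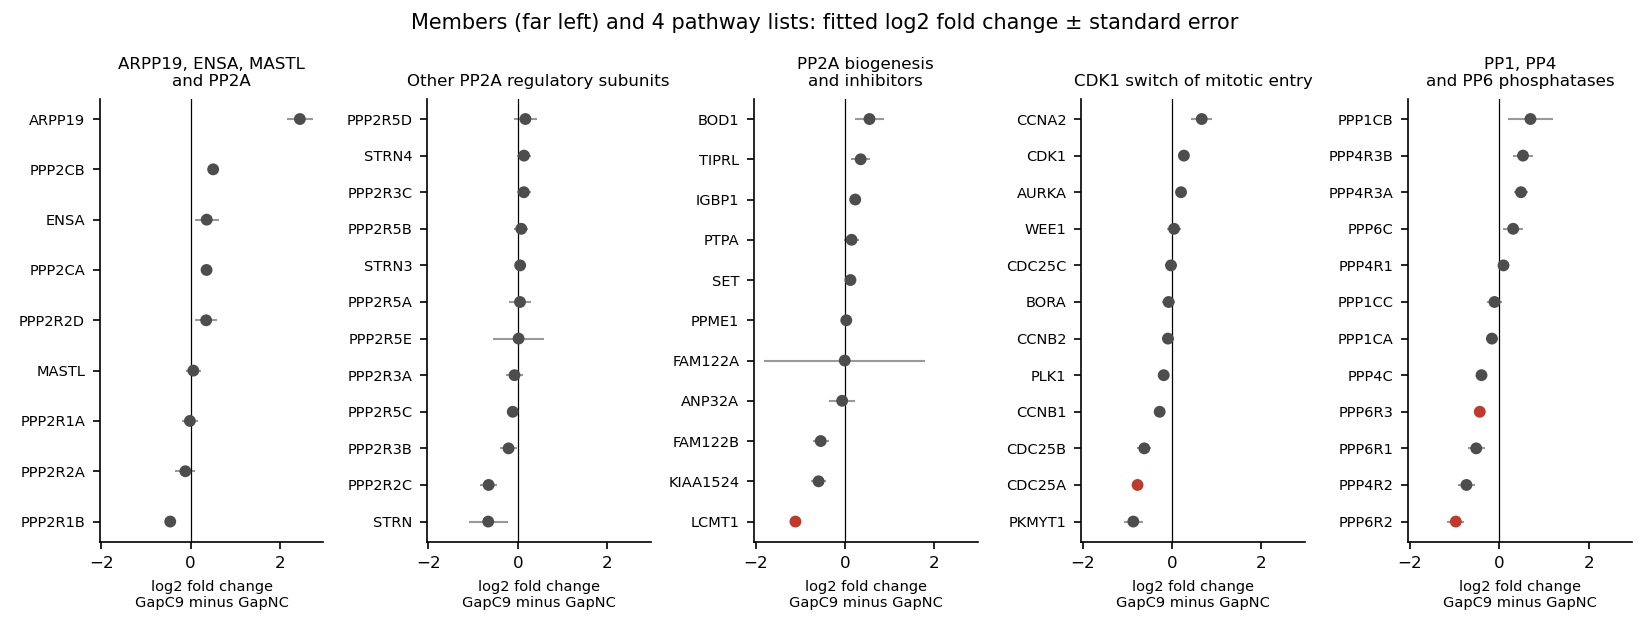
Fitted log2 difference (horizontal axis, GapC9 minus GapNC) with its standard error for the 9 members (far left, no calls drawn) and the 47 tested rows of the 4 pathway lists. Red points mark list genes at a limma adjusted p under 0.05, which are LCMT1, CDC25A, PPP6R2 and PPP6R3, all lower.

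ARPP19 was also compared with its surroundings on chromosome 15. The nearest annotated gene toward higher coordinates, the antisense RNA AC025917.1, lies 7.96 kb away and was below the filter. FAM214A, 11.4 kb from ARPP19, was at 0.206, 0.417 and 0.325 FPKM in GapNC and at 0.515, 0.746 and 0.710 FPKM in GapC9. The groups of FAM214A did not overlap, and its log2 difference was 0.88 (standard error 0.26), at levels far below those of ARPP19. MYO5A, an actin motor gene and the nearest one toward lower coordinates, was at 4.02, 3.66 and 4.87 FPKM in GapNC and at 3.92, 4.63 and 4.64 FPKM in GapC9, with overlapping groups and a log2 difference of 0.076 (standard error 0.15). Within 2 Mb on each side, 20 genes had a tested row, with a median log2 difference of 0.067 and a range from −0.73 to 1.78, the highest being AC090971.1 at a mean of 0.0289 FPKM in GapNC, where it was listed at 0 in replicates 1 and 3.

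**Figure D4:**
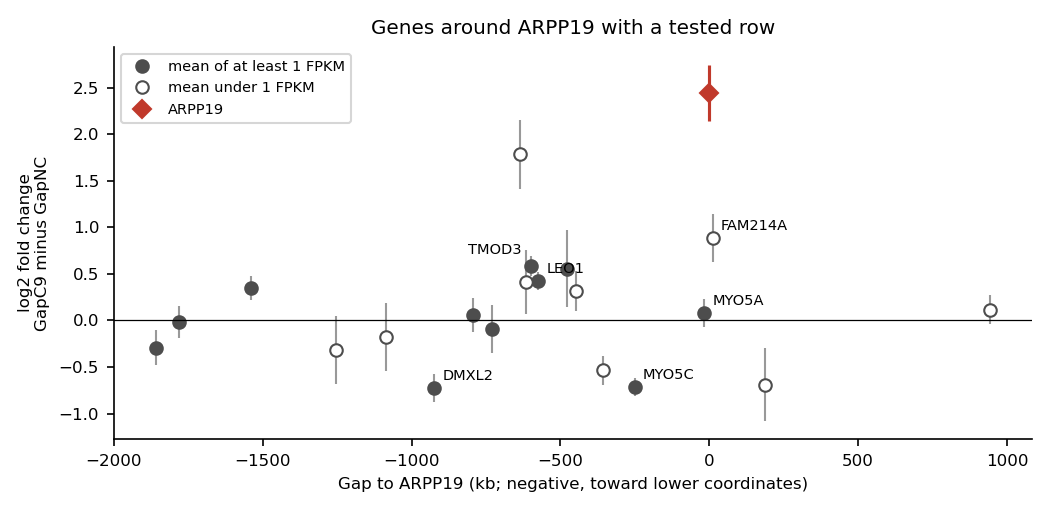
Log2 difference with standard error (vertical axis, GapC9 minus GapNC) of the 20 tested genes within 2 Mb of ARPP19 against their gap to it in kb, with open circles for means under 1 FPKM. ARPP19, at 2.44, lies above all of them.

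The spliced transcripts of the members were also compared with the 16-base targets of both GapmeRs, without gaps. The closest ARPP19 site to the GapC9 target had 5 mismatches, and 36.7% of 58671 annotated genes had a site with as few or fewer. For the control GapmeR both ARPP19 and PPP2R1A had 4 mismatches, and 9.59% of genes had as few or fewer. PPP2CB had the closest GapC9 site of the members, with 3 mismatches, and 1.14% of genes had as few or fewer. The other 7 members had 5 for GapC9. For the control GapmeR, the members besides ARPP19 and PPP2R1A had 5 or 6. Introns were not searched, and longer transcripts offer more sites.

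The genes whose log2(FPKM + 0.1) followed ARPP19 most closely over the 6 libraries, among 9094 rows with 1 gene name, a mean over the libraries of at least 1 FPKM and no 0, were CENPK (Pearson's r = 0.9986), a kinetochore subunit, XRCC4 (0.9975), which acts in end joining of DNA breaks, YPEL5 (0.9974), RGS9 (0.9971) and PRNP (0.9966), the prion protein gene. All 5 shared with ARPP19 the gap between the groups and the low value in GapNC replicate 1. Their differences were smaller, with ratios of means of 1.199 in CENPK, 1.58 in XRCC4, 1.87 in YPEL5, 1.41 in RGS9 and 1.25 in PRNP. These correlations rest on 6 libraries in 2 groups of the comparison that chose ARPP19, and describe likeness only.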

How the data were processed

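RNA-seq libraries of HCT-116 cells, 3 labelled GapNC and 3 GapC9, were grouped by the sample records, and columns by their names (0 left unused). The authors aligned reads with HISAT to a human reference whose build is not named in the sources used here, and deposited FPKM from StringTie (HISAT2 2.0 and StringTie 1.3.0 in the submitters' notes) without counts. StringTie can join neighboring genes, as in 1063 of 27918 rows.

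In R 4.3.3, limma 3.58.1 (lmFit, eBayes with trend) was fitted to log2(FPKM + 0.1) of the 16028 rows with a mean of at least 0.1 FPKM, all 6 libraries in 1 fit, with Benjamini-Hochberg adjustment over all rows. A change of a low gene is understated on this scale. The study's edgeR test needs counts and was not rerun. Per-value counting error is unknown.

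The members and lists were chosen with earlier results of these data known. Named were all members, list genes called or at either extreme of their list with a mean of at least 1 FPKM, the 5 genes most like ARPP19, pseudogenes and neighbors, and outside this rule 8 list genes chosen after their values were seen. Alternatives were 2 pseudocounts, 2 filters, 2 scalings, no trend, a GC correction (lowess, span 0.3), a replicate block with and without it, and each library left out. The fit was tested on simulated data. GENCODE v29 held 99.9% of the listed Ensembl transcripts. Sequences were handled with Biopython 1.88.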

Additional observations from a re-analysis of the deposited data

How the results depend on the processing

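The log2 difference of ARPP19 was 2.10 to 2.65 with 1 library left out and 2.30 to 2.59 in the 10 other settings. Of the other members, only MASTL, PPP2R1A and PPP2R2A changed sign in any setting. All rows called at an adjusted p under 0.05 numbered 1120 (303 higher, 817 lower). They were 492 of 27918 with no filter and 2317 of 16028 after the GC correction (1089 higher, 1228 lower). With 1 library left out they were 34 to 814. The counts were 814, 35 and 105 without GapNC replicates 1, 2 and 3. They were 58, 35 and 34 without GapC9 replicates 1, 2 and 3. Median scaling moved the median of all rows from −0.076 to 0.058 and the split to 508 higher and 437 lower, and quantile normalization gave 347 and 516. By ratio and unadjusted p, 1029 of 16028 rows were called, and 496 of 10229 with the filter at 1 FPKM. With 1 library left out there were 932 to 1160. Of the list genes, 4 were called, and 2 with no filter, with median scaling or without trend, 12 after the GC correction, and 0 to 6 with 1 library left out (0 without GapNC replicate 2 or any 1 GapC9 library). By ratio 1 was called, 0 after median scaling or the GC correction, also with the block, and 1 to 3 with 1 library left out. The change in the share of ARPP19 against the ENSA row was 28.7 to 36.9 percentage points with 1 library left out. The causes were not tested.

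The labels give same-numbered libraries only a common number and do not say whether they were paired. Their deviations correlated at 0.097, 0.040 and 0.024, and 4 of 6 libraries correlated best with their own number, which does not settle it. With a replicate block, limma called 0 rows and 0 list genes at the adjusted threshold (4570 and 19 at an unadjusted p under 0.05), ARPP19 among the rows not called. With the block and the GC correction it called 1 row and 0 list genes (4620 and 20 unadjusted). At the filter of 0.1 FPKM a gene has few fragments, and all members lie well above it.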
